A study of Mus musculus with 12 samples.

Results

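A20, encoded by Tnfaip3, and the proteins it works with were followed through the response of mouse embryonic fibroblasts to interleukin-1 beta (IL-1b). The set was defined by gene symbol, although the members were chosen with earlier results of these data known. It held every probe set annotated with the single symbol Tnfaip3, Tnip1, Tnip2, Tax1bp1, Itch or Cyld, which gave 16 probe sets of the 45037 non-control probe sets on the array (6 of 18193 genes). Of these, 12 were tested, because at least 2 arrays gave them a signal of 25.5 or more, which is the median over the whole table, and 27086 probe sets in all met that threshold. The other 4 did not, and the Tnip2 probe set was among them.

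Fibroblasts of IRAK4 kinase dead (IRAK4-KD) embryos, in which the protein kinase IRAK4 lacks activity, were compared with wild-type (WT) fibroblasts. Unstimulated cells were kept for 4 h, and stimulated cells received mouse IL-1b at 1 ng/ml over 1 h or 4 h, all in medium with foetal calf serum. Each of the 6 groups held 2 arrays. No source used here gives the allele, the strain, the age of the embryos, the number of animals or the passage of the cultures. The series design calls the 2 arrays of a group biological replicates and names no source animal or culture for either. The p-values therefore measure the spread between these samples, which may be technical. The title of WT unstimulated replicate 1 gives no genotype, and the array was placed by the series design. The controls were grown for 4 h, so that the 1 h comparisons also differ in time in culture. A transcript level does not measure lost kinase activity, and the Irak4 transcript was not analysed here.

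IL-1b binds its receptor on the cell surface, and the adaptor MyD88 then brings IRAK4 and related kinases together, which leads through TRAF6 and ubiquitin chains to the kinases that activate NF-kB. A20 limits this signalling by editing and binding ubiquitin chains, and its gene is itself a target of NF-kB, so that the pathway makes its own brake. ABIN-1 and ABIN-2, encoded by Tnip1 and Tnip2, bind ubiquitin chains and A20. TAX1BP1 and the ubiquitin ligase ITCH help to bring A20 to its substrates, and CYLD is a separate deubiquitinase that removes chains from some of the same signalling proteins.

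Median signals per array were 23.0 to 28.3, and each array had the same mean of 150.0 after trimming of 2% from each end. Fibroblast markers were well represented, with Col1a1 at 4601 to 6237 and Vim at 5489 to 6859 signal units over the 12 arrays. Endothelial and epithelial lists were dim, at summed signals of at most 117.3 and 148.3. Of the 12 fibroblast markers all were tested, with summed signals of 31333 to 34135 in IRAK4-KD arrays and 31519 to 37198 in WT arrays, but these sums are mostly collagens, vimentin and fibronectin, and 3 of the 12 were called lower in unstimulated IRAK4-KD cells. Group means of Pdgfra were 131.9 to 172.8 in IRAK4-KD cells and 583.5 to 774.0 in WT cells, those of Lum 58.8 to 73.1 and 362.8 to 595.0, and those of S100a4 1141 to 1535 and 2642 to 3065, in the same order of genotypes. The cultures also differed between genotypes in markers of other cells. The 10 macrophage markers summed to 626.9 to 764.2 in IRAK4-KD arrays and 271.4 to 312.3 in WT arrays, with 8 of the 10 tested and Itgam and Cd14 too dim to test, and the 7 neural markers to 584.7 to 682.1 in IRAK4-KD arrays and 216.0 to 363.2 in WT arrays. In unstimulated cells 5 of 8 tested macrophage markers and 2 of 6 tested neural markers were called higher in IRAK4-KD cells, and much of the neural sum was Fabp7, with group means of 205.8 to 265.5 in IRAK4-KD cells and 30.3 to 36.3 in WT cells. The part of these differences in the results below was not tested. In such bulk samples fewer cells of a type and less RNA per cell cannot be told apart.

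Tnfaip3 was the member with the largest response, and in IRAK4-KD cells that response was much smaller and lacked the fall from 1 h to 4 h seen in WT cells. Probe set 1433699_at gave signals of 46 and 55.4 in unstimulated IRAK4-KD cells, 88.9 and 90.6 after 1 h and 118.1 and 132.1 after 4 h. In WT cells it gave 42.9 and 43.8 without stimulation, 1621 and 1867 after 1 h and 561.6 and 564.2 after 4 h. The groups did not overlap at any point: every stimulated array lay above every unstimulated array, and every stimulated WT array lay above every IRAK4-KD array.

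**Figure D1:**
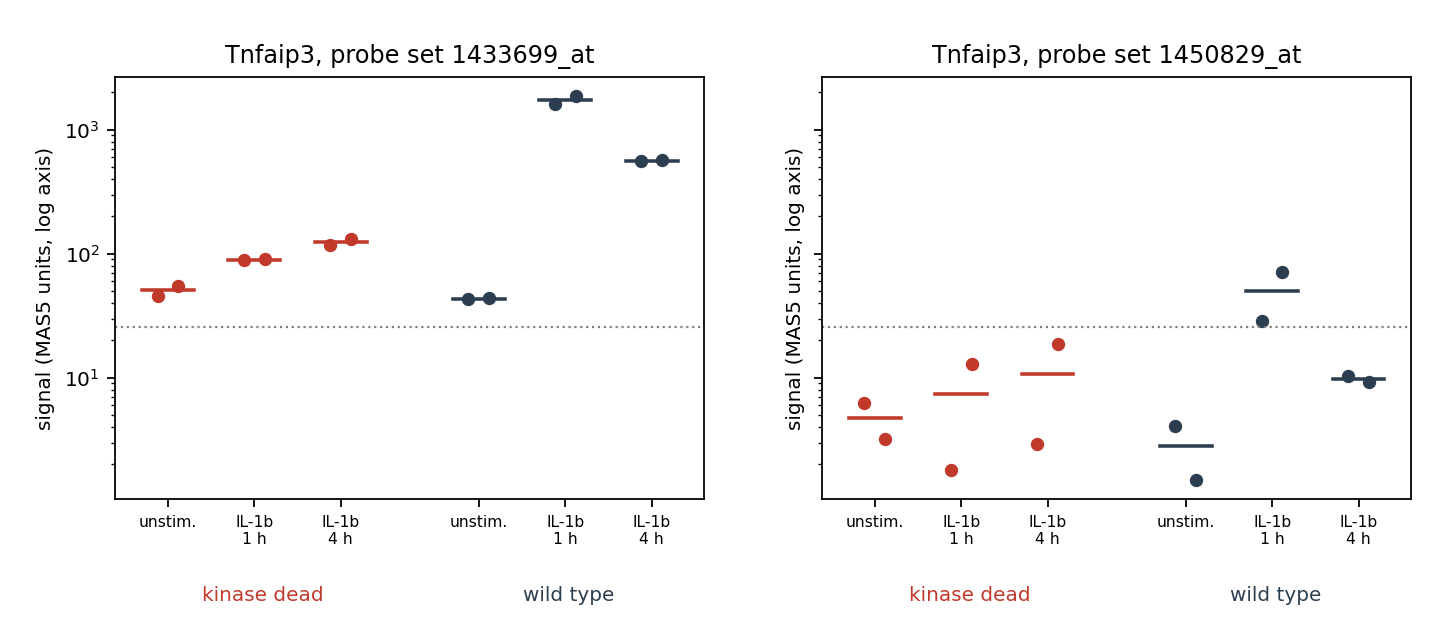
Signals of the 2 Tnfaip3 probe sets on a log axis, by genotype and condition. Each point is an array, each bar a group mean (n = 2), and the dotted line marks 25.5, the signal threshold. With probe set 1433699_at the IRAK4-KD arrays climb to 132.1 at 4 h, while the WT arrays peak at 1867 at 1 h. With probe set 1450829_at only the WT 1 h arrays pass the threshold.

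Changes were tested with limma on log2(signal + 8), over all 27086 probe sets and with Benjamini-Hochberg adjustment, and are called at an adjusted p under 0.05. At 1 h the mean Tnfaip3 signal was 1.77 times the unstimulated mean in IRAK4-KD cells (log2 fold change 0.74 ± 0.15, SE, adjusted p = 0.0121) and 40.2 times in WT cells (5.09 ± 0.15, adjusted p = 1.66e-13). At 4 h it was 2.47 times the unstimulated mean in IRAK4-KD cells (1.18 ± 0.15, adjusted p = 0.000442) and 13.0 times in WT cells (3.47 ± 0.15, adjusted p = 3.41e-11). All 4 rises were called, and the WT rise at 1 h was the fifth highest of all probe sets tested. The 1 h call in IRAK4-KD cells was the least secure: the adjusted p was 0.0953 without IRAK4-KD unstimulated replicate 1, 0.0835 and 0.0963 without IRAK4-KD 1 h replicates 1 and 2, 0.0751 without the variance trend and 0.0779 with only these groups in the fit. The IRAK4-KD call at 4 h held in all 23 alternative settings (adjusted p 0.000146 to 0.0189).

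The difference between the responses was itself tested. The IRAK4-KD response minus the WT response was -4.35 ± 0.21 at 1 h (95% interval -4.79 to -3.91, adjusted p = 8.46e-10) and -2.29 ± 0.21 at 4 h (95% interval -2.73 to -1.85, adjusted p = 7.02e-06). In signal units, Tnfaip3 rose by 39.1 in IRAK4-KD cells and by 1700 in WT cells at 1 h, so that the IRAK4-KD rise was 2.30% of the WT rise (1.84% to 2.83% over the 16 ways of taking 1 array from each group). At 4 h it rose by 74.4 in IRAK4-KD cells and by 519.6 in WT cells, a share of 14.3% (12.0% to 16.6%). In signal units the Tnfaip3 rise in IRAK4-KD cells was therefore a small part of the WT rise at both times. Its share was larger at 4 h than at 1 h, while the WT rise itself was smaller at 4 h.

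Between 1 h and 4 h of IL-1b the genotypes moved differently. Tnfaip3 at 4 h minus 1 h was 0.44 ± 0.15 on the log2 scale in IRAK4-KD cells (adjusted p = 0.124, not called) and -1.61 ± 0.15 in WT cells (adjusted p = 1.10e-06). The WT signal at 4 h was 0.323 times that at 1 h. The difference between these changes, a comparison added after the values were seen, was 2.06 ± 0.21 (95% interval 1.62 to 2.50, adjusted p = 2.31e-05). Without stimulation the genotypes did not differ beyond the test (IRAK4-KD minus WT 0.19 ± 0.15, adjusted p = 0.478). The order of levels was thus unstimulated WT, unstimulated IRAK4-KD, IRAK4-KD at 1 h, IRAK4-KD at 4 h, WT at 4 h and WT at 1 h, from low to high, and among the neighbours that were tested the 2 unstimulated groups and the 2 stimulated IRAK4-KD groups did not pass. The levels of IRAK4-KD and WT cells at 4 h did not overlap but were not tested directly.

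The other Tnfaip3 probe set, 1450829_at, was dim and gave 1.8 to 18.7 on the IRAK4-KD arrays. On the WT arrays it gave 4.1 and 1.5 without stimulation, 28.7 and 70.6 after 1 h and 10.4 and 9.2 after 4 h. It reached the signal threshold only on the 2 WT 1 h arrays, so that it entered the test through the group in which it was high. Its WT log2 fold change at 1 h was 2.32 ± 0.61 (adjusted p = 0.0273), and its response difference at 1 h was -2.15 ± 0.86 (adjusted p = 0.512). The WT 1 h call was lost without WT 1 h replicate 2 (adjusted p = 0.310) and without either WT unstimulated array (0.0595 and 0.0953).

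RefSeq promoters, 250 bases before to 50 after a gene's start, were listed for 5 of the 6 genes, all but Itch. They are shown for Tnfaip3 and Tnip1, the members called higher after IL-1b, and for Cyld, which was not, because NF-kB acts through short kB sites in such regions. The build is GRCm38.p6. Tnfaip3 lies at chr10:19015361-19015660 on the minus strand (the upstream of 2 starts), Tnip1 at chr11:54962891-54963190 on the minus strand and Cyld at chr8:88696778-88697077 on the plus strand. Capitals mark matches, on either strand, to a kB consensus of 10 bases (2 G, 2 purines, any 2 bases, 2 pyrimidines and 2 C), to GGAANTTCC, a shorter kB-like motif chosen after the Tnfaip3 promoter was seen, or to the AP-1 motif TGANTCA.
Tnfaip3: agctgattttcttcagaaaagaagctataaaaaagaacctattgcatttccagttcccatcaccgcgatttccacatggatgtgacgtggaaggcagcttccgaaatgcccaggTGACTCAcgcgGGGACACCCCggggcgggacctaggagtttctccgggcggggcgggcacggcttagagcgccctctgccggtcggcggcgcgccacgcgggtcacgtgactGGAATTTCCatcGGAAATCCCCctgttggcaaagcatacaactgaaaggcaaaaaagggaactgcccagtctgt
Tnip1: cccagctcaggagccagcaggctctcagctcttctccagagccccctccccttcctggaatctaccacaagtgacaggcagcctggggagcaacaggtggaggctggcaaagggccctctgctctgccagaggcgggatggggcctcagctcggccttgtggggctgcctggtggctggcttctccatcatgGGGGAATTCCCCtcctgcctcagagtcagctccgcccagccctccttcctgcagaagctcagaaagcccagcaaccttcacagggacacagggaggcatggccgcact
Cyld: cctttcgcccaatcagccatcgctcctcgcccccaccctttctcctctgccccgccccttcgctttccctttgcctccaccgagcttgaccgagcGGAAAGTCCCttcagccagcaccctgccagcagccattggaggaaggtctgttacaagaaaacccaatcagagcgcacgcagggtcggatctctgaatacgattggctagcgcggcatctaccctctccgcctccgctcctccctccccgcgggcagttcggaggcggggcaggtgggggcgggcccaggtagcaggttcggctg

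The Tnfaip3 promoter held the consensus at 2 places, GGGACACCCC from -125 to -116 and GGAAATCCCC from -12 to -3, counted from the start, with GGAATTTCC between them at -24 to -16 and TGACTCA at -136 to -130. In Tnip1 3 overlapping matches made up the run between -58 and -47. Cyld held GGAAAGTCCC from -155 to -146, Tnip2 GGAAAATTCC from -240 to -231 and the downstream of 2 Tax1bp1 starts GGGGACTCCC from 35 to 44. The downstream Tnfaip3 start and the upstream Tax1bp1 start held none of the 3 motifs. Of all 32851 promoters of this length, 11.2% held the consensus, 0.928% held GGAANTTCC and 7.81% held TGANTCA. The consensus was thus present in promoters of members with and without a response, and a match of letters is not a measured site.

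**Figure D2:**
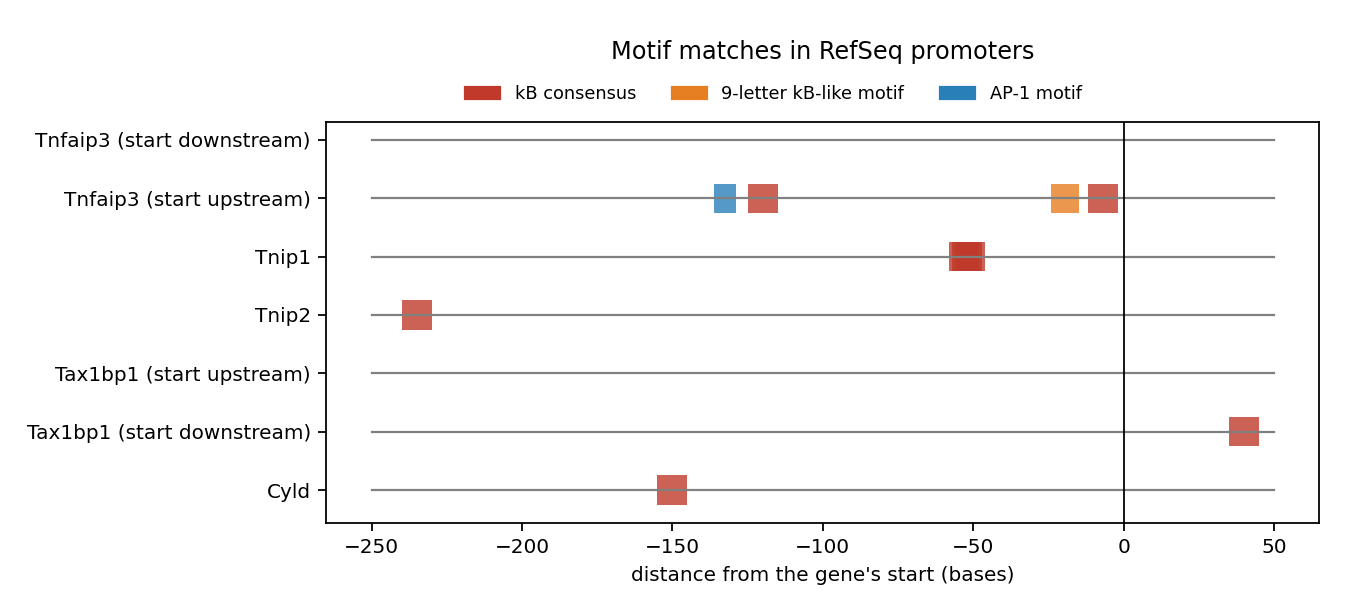
Motif matches in the 7 RefSeq promoters of 5 member genes, by distance from each gene's start (the vertical line at 0, in bases). Red boxes are kB consensus matches, orange the shorter kB-like motif and blue the AP-1 motif. The upstream Tnfaip3 start has 4 matches, 2 of them to the consensus, and the Tnip1 promoter has 3 overlapping ones.

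Tnip1, whose product ABIN-1 couples A20 to ubiquitin chains, was the only other member called higher after IL-1b, and it rose late. Its probe set 1427689_a_at gave 80.2 and 75.4 in unstimulated IRAK4-KD cells, 111.5 and 100 after 1 h and 107.4 and 119.6 after 4 h. In WT cells it gave 94.1 and 112.6 without stimulation, 99.9 and 128.6 after 1 h and 204.4 and 228.4 after 4 h. The WT 4 h arrays stood clear above all others and the unstimulated IRAK4-KD arrays clear below them, while the stimulated IRAK4-KD arrays lay within the range of the WT arrays outside 4 h. The IRAK4-KD responses are thus measured from a lower start, although the difference between unstimulated IRAK4-KD and WT cells did not pass the test (-0.37 ± 0.18, adjusted p = 0.205).

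At 4 h the Tnip1 log2 fold change was 0.50 ± 0.18 in IRAK4-KD cells (adjusted p = 0.258, not called) and 1.01 ± 0.18 in WT cells (adjusted p = 0.00131), where the mean signal was 2.09 times the unstimulated mean. The WT call held in all 23 alternative settings. At 1 h it was 0.41 ± 0.18 in IRAK4-KD cells (adjusted p = 0.275) and 0.13 ± 0.18 in WT cells (adjusted p = 0.741). From 1 h to 4 h the Tnip1 change was 0.10 ± 0.18 in IRAK4-KD cells (adjusted p = 0.859, not called) and 0.88 ± 0.18 in WT cells (adjusted p = 0.00224). The response difference at 4 h was -0.51 ± 0.25 (95% interval -1.04 to 0.01, adjusted p = 0.361) and at 1 h 0.28 ± 0.25 (adjusted p = 0.824), so that a difference between genotypes in the Tnip1 response was not shown. Tnip1 and Tnfaip3 thus followed different courses in WT cells, with Tnfaip3 lower and Tnip1 higher at 4 h than at 1 h.

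Tnip2, the gene of ABIN-2, which also binds A20, was near the bottom of the scale. Its probe set 1419488_at gave 2.7 and 20.7, 13.5 and 4.1, and 4.8 and 6.5 in IRAK4-KD cells without stimulation, at 1 h and at 4 h. In WT cells the values were 5.4 and 6.0, 2.8 and 4.5, and 18.6 and 6.2. Single arrays decided the group means, and with no filter on low signals the smallest adjusted p over the comparisons was 0.443. No change in Tnip2 was detectable at these signals.

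**Figure D3:**
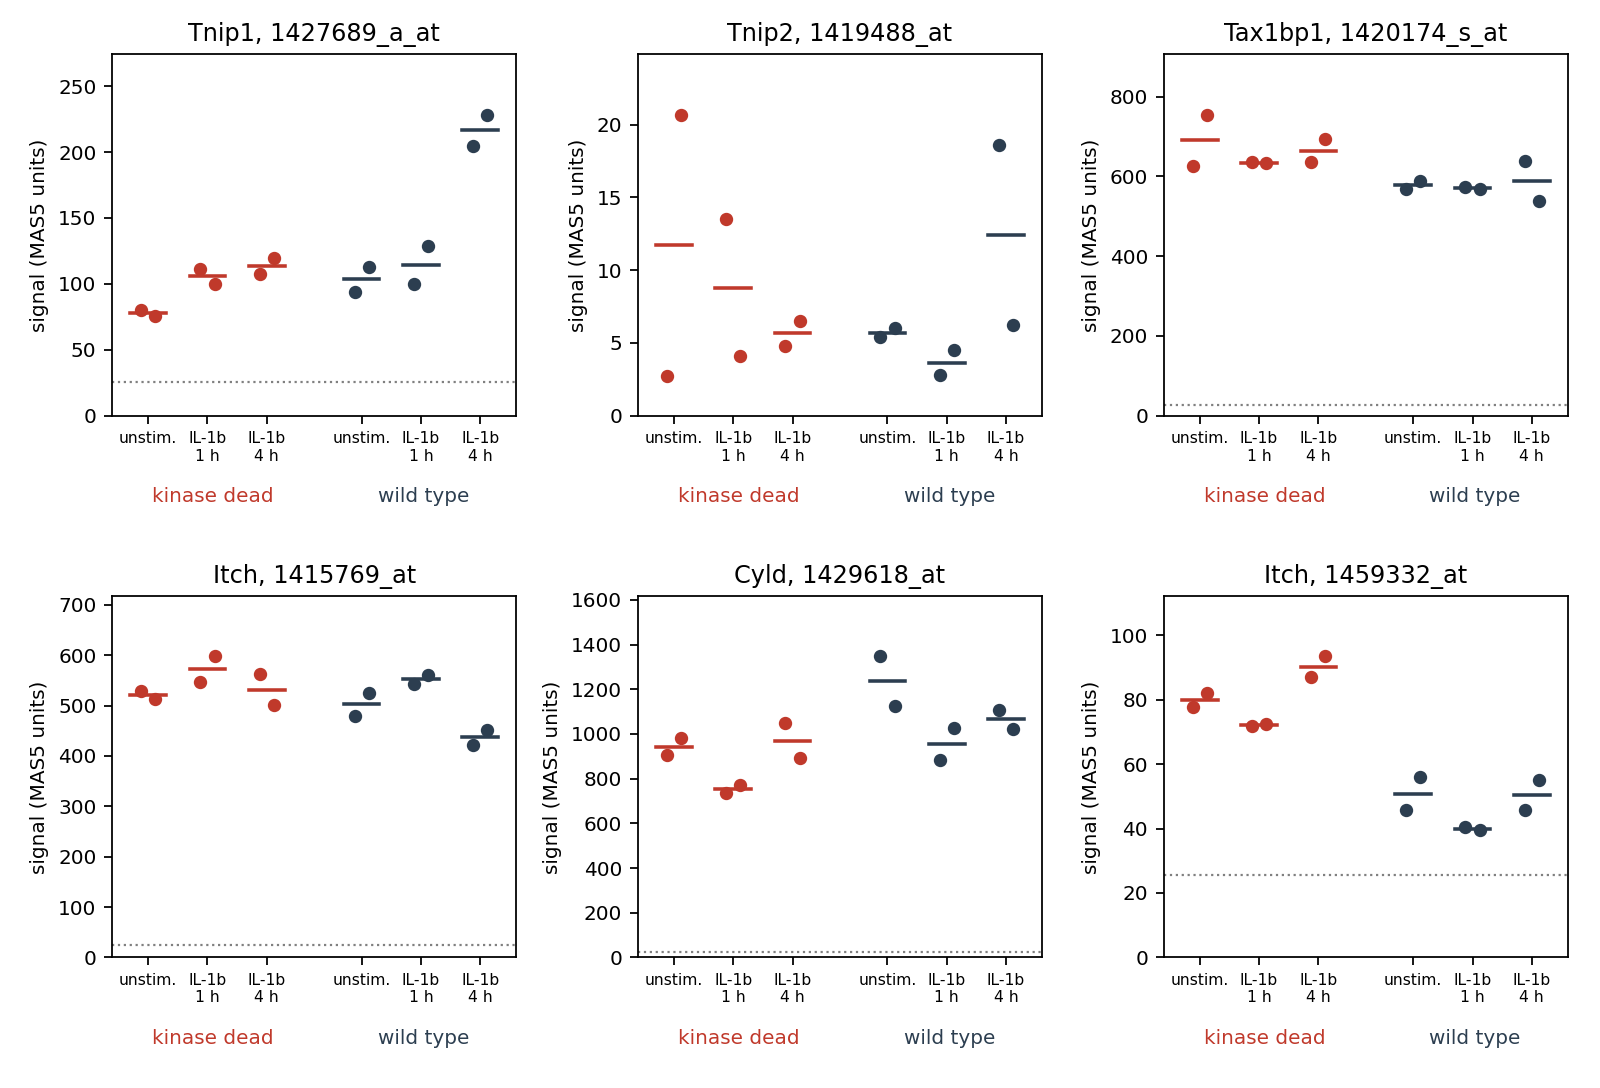
Signals of the leading probe set of each partner, and of a second Itch probe set, by genotype and condition, on axes that start at 0. Points are arrays, bars group means (n = 2) and the dotted line the threshold of 25.5. Tnip1 stands out at 204.4 and 228.4 in WT cells at 4 h, and Itch probe set 1459332_at is higher in each IRAK4-KD array than in any WT array.

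The adaptors that bring A20 to its substrates were not called in any comparison. Tax1bp1, whose product also acts as an autophagy receptor, was measured by 4 probe sets. The leading probe set, 1420174_s_at, ranged over 626.9 to 754.9 in IRAK4-KD arrays and 537.5 to 638.0 in WT arrays. Its response at 1 h was -0.12 ± 0.12 in IRAK4-KD cells and -0.02 ± 0.12 in WT cells, and the 95% intervals, -0.36 to 0.13 and -0.26 to 0.23, exclude a change of 1.0 log2 unit in either direction. With 1448399_at the stimulated arrays lay below the unstimulated arrays in both genotypes and at both times. The largest such change was -0.24 ± 0.10, in IRAK4-KD cells at 4 h (adjusted p = 0.357). Probe set 1420175_at was likewise lower at 1 h, though not at 4 h (-0.23 ± 0.14 in IRAK4-KD and -0.26 ± 0.14 in WT cells at 1 h, adjusted p = 0.482 and 0.316). Probe set 1448399_at gave 712.3 and 696.5 in unstimulated IRAK4-KD cells and 568.6 and 566.0 in unstimulated WT cells, a difference of 0.31 ± 0.10 (adjusted p = 0.0557), which was called under 3 alternative settings (adjusted p 0.0275 to 0.0464) and in none of the 12 fits without an array. The leading probe set also gave higher signals in both unstimulated IRAK4-KD arrays than in the WT ones (0.25 ± 0.12, adjusted p = 0.202), 1420175_at gave a difference of 0.04 ± 0.14 (adjusted p = 0.892), and 1442901_at, at 15.6 to 26.9, was not tested.

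Itch, the gene of a ubiquitin ligase of the Nedd4 family, also gave no call. Its leading probe set, 1415769_at, ranged over 500.2 to 597.4 in IRAK4-KD arrays and 421.5 to 560.0 in WT arrays. The lowest values were the WT 4 h arrays, 421.5 and 451.7, against 543.3 and 560.0 in WT cells at 1 h, a difference of -0.33 ± 0.11 (adjusted p = 0.0524) that was called in 5 of 23 alternative settings. The response difference at 1 h was 0.00 ± 0.16, with a 95% interval of -0.33 to 0.33 (adjusted p = 0.998). Probe set 1459332_at separated the genotypes: it gave 71.9 to 93.4 in IRAK4-KD arrays and 39.6 to 55.9 in WT arrays, with 0.58 ± 0.21 without stimulation (adjusted p = 0.0812, called under 2 of 21 alternative settings). The leading probe set of the same gene gave 0.05 ± 0.11 there (adjusted p = 0.823), so the probe sets disagree. The other Itch probe sets, 1431316_at at 42.5 to 77 and 1440582_at at 3.7 to 23.2, gave no call.

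Cyld, the gene of a deubiquitinase that restrains the same pathway without A20, gave lower signals at 1 h than without stimulation in both genotypes, by less than the test could call. Its leading probe set, 1429618_at, gave 905.9 and 981.0 in unstimulated IRAK4-KD cells, 734.0 and 772.6 at 1 h and 1051 and 890.9 at 4 h. In WT cells it gave 1347 and 1126 without stimulation, 882.9 and 1026 at 1 h and 1107 and 1023 at 4 h. In each genotype both 1 h arrays lay below both unstimulated arrays. The log2 fold change at 1 h was -0.32 ± 0.12 in IRAK4-KD cells (adjusted p = 0.168) and -0.37 ± 0.12 in WT cells (adjusted p = 0.0668, called in 3 of 23 alternative settings), and neither passed. The responses differed by 0.05 ± 0.16 (95% interval -0.30 to 0.39), and at 4 h the fold changes were 0.04 ± 0.12 in IRAK4-KD cells and -0.21 ± 0.12 in WT cells (adjusted p = 0.942 and 0.314). At 1 h probe set 1429201_at gave -0.59 ± 0.22 in IRAK4-KD cells and -0.38 ± 0.22 in WT cells (adjusted p = 0.202 and 0.362). The dim probe set 1429617_at gave -0.20 ± 0.36 in IRAK4-KD cells and, in the other direction, 0.41 ± 0.36 in WT cells at 1 h (adjusted p = 0.866 and 0.574).

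Without stimulation Cyld was lower in IRAK4-KD cells, at 0.763 times the WT mean (-0.38 ± 0.12, adjusted p = 0.0412). This call was lost in 10 of the 23 alternative settings (over all 23 the adjusted p was 0.0146 to 0.226). Those that left out an array were the fits without IRAK4-KD unstimulated replicate 1 or 2 (-0.33 and -0.44, adjusted p = 0.226 and 0.0889), IRAK4-KD 1 h replicate 1 or 2 (adjusted p = 0.0575 and 0.0577) and WT unstimulated replicate 1 (-0.25, adjusted p = 0.208). The Cyld call was also lost with no filter, median centring, no variance trend, array weights or only the groups compared. The ratio of the 3' to the 5' actin control, which reflects RNA integrity and labelling, was 2.83 and 2.86 in unstimulated IRAK4-KD arrays and 2.14 and 2.68 in unstimulated WT arrays, and the macrophage and neural sums given above also differed. Their part in the Cyld difference was not tested. Probe set 1429201_at gave 80.6 and 60.5 in unstimulated IRAK4-KD cells against 88.8 and 92.4 in WT cells, a difference that did not pass (-0.34 ± 0.22, adjusted p = 0.387). Probe sets 1429617_at (17.0 to 52.3) and 1445213_at (3.7 to 21.9, not tested) were dim.

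**Figure D4:**
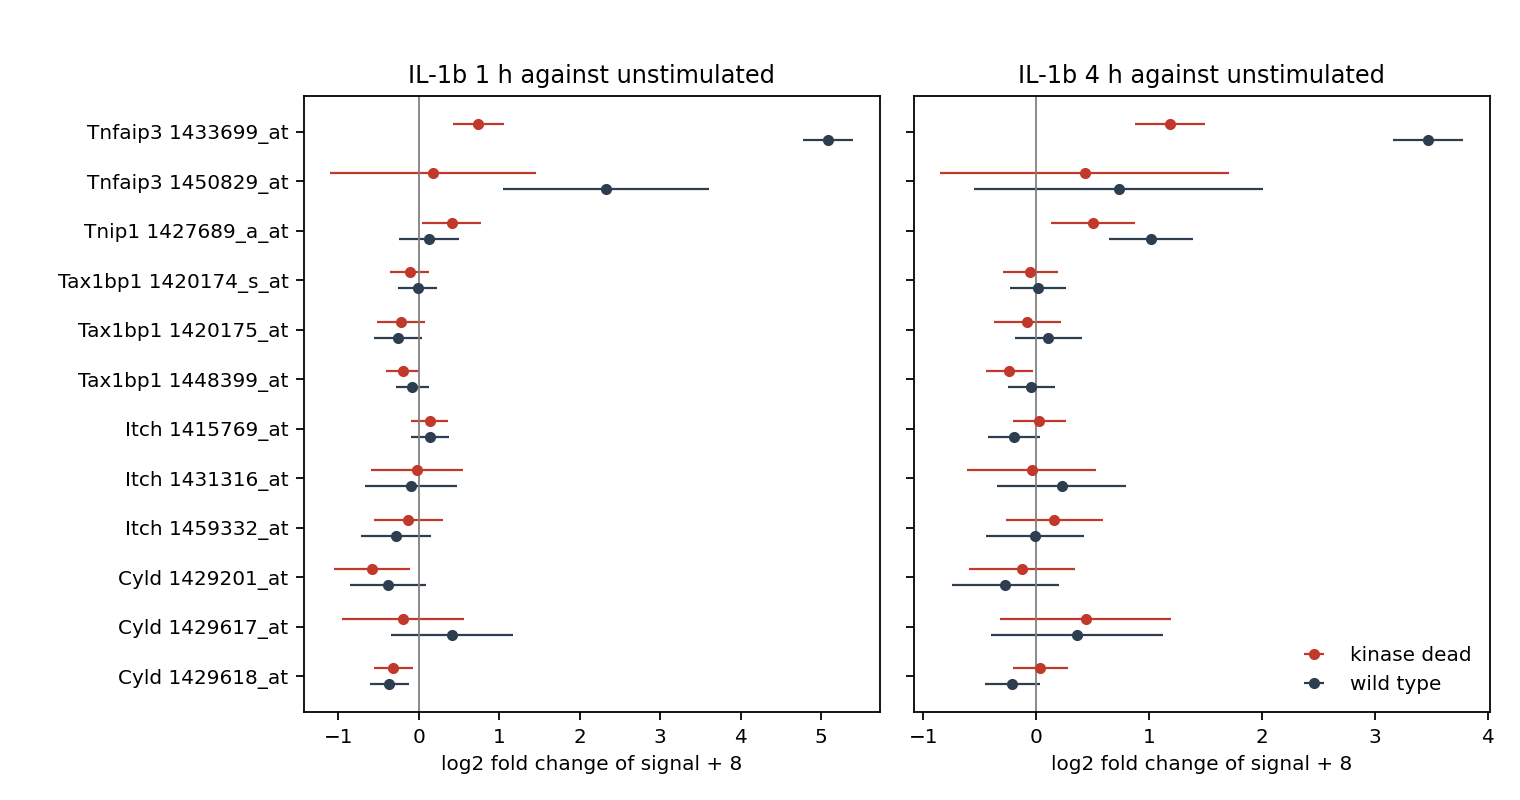
Log2 fold changes after IL-1b of the 12 tested probe sets, with 95% intervals from limma, in IRAK4-KD cells (red) and WT cells (dark) at 1 h and 4 h, each against the unstimulated cells of its genotype. The leading Tnfaip3 probe set reaches 0.74 and 1.18 in IRAK4-KD cells and 5.09 and 3.47 in WT cells, and most other intervals include 0.

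Over the 12 tested probe sets the calls stood as follows beside the share of all 27086 probe sets called in the same comparison. At 1 h 1 was called in IRAK4-KD cells (background 2.35%) and 2 in WT cells (background 6.65%), all Tnfaip3 and all higher. Of the 2 WT calls, 1450829_at was tested only because of the WT 1 h arrays themselves, which biases it towards a call. It is therefore not used as support, which leaves 1433699_at. With quantile normalization Cyld 1429618_at was called as well in WT cells at 1 h, and lower. At 4 h 1 was called in IRAK4-KD cells (Tnfaip3, background 0.406%) and 2 in WT cells (Tnfaip3 and Tnip1, background 7.52%), again all higher. Between 1 h and 4 h 0 of 12 were called in IRAK4-KD cells by limma (2 had an unadjusted p under 0.05, background 2.70%) and 2 in WT cells, Tnfaip3 lower and Tnip1 higher (background 14.7%). For the response difference 1 was called at 1 h (background 0.366%), 1 at 4 h (background 1.73%) and 1 for the change from 1 h to 4 h (background 2.09%), Tnfaip3 each time. Without stimulation 1 was called, Cyld (background 10.8%). The counts for the unstimulated cells and for both genotypes between 1 h and 4 h are near their backgrounds. So is the count for WT cells at 1 h once 1450829_at is left out. All the counts are 0 to 2, so the results rest on the named probe sets and not on the set as a whole. Within a genotype the 1 h and 4 h comparisons share their unstimulated arrays.

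**Figure D5:**
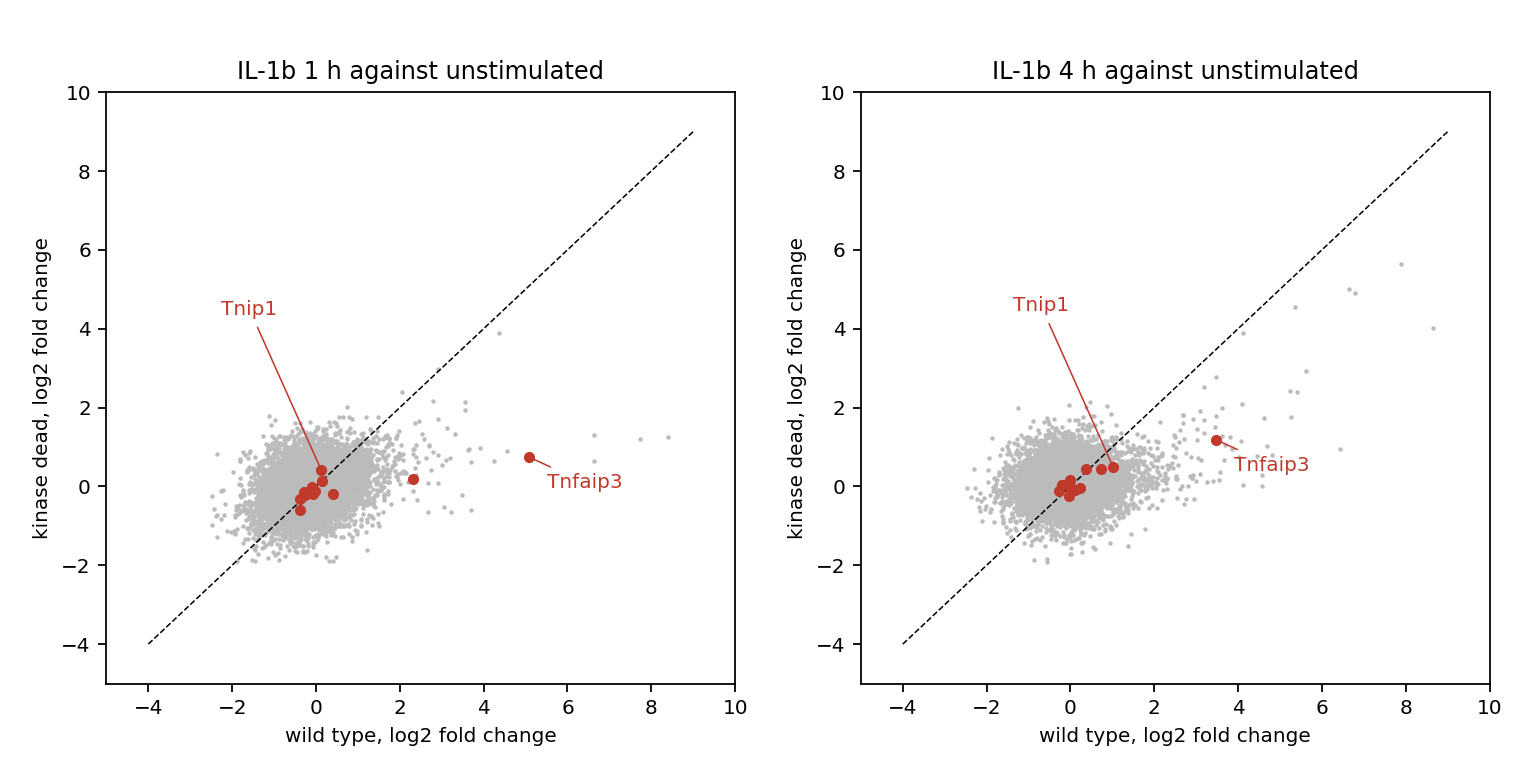
Log2 fold change in IRAK4-KD cells (vertical) against WT cells (horizontal) at 1 h and 4 h for the 27086 tested probe sets (grey) and the 12 member probe sets (red), with the line of equal change dashed. The genotypes have separate controls. Tnfaip3 lies far below the line, at 0.74 against 5.09 at 1 h and 1.18 against 3.47 at 4 h, and most other members lie near the centre, apart from the dim Tnfaip3 probe set at 1 h and Tnip1 at 4 h (0.50 against 1.01).

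Pathway genes around A20 were taken from lists, with each gene read from its brightest probe set, over 12456 genes. The lists were chosen with earlier results of these data known, so that their counts are descriptive. Of 12 tested NF-kB feedback inhibitors and inducible subunits, 1 was called in IRAK4-KD cells and 4 in WT cells at 1 h, and 4 in IRAK4-KD cells and 7 in WT cells at 4 h, all higher (6 in WT cells at 1 h with median centring). Over all genes 2.81% and 7.15% were called at 1 h and 0.530% and 10.1% at 4 h, in the same order of genotypes. The list's median log2 fold change at 4 h was 0.76 in IRAK4-KD cells and 1.01 in WT cells, against -0.01 and -0.12 over all genes. Nfkbiz, an atypical inhibitor of the IkB family, rose at 1 h by 0.96 ± 0.09 in IRAK4-KD cells and 3.91 ± 0.09 in WT cells, and at 4 h by 2.79 ± 0.09 and 3.47 ± 0.09 in the same genotypes. Nfkbia, the gene of IkB-alpha, rose at 4 h by 1.15 ± 0.11 in IRAK4-KD cells and 1.85 ± 0.11 in WT cells. Zc3h12a, the gene of the RNase regnase-1, rose at 4 h by 2.40 ± 0.38 in IRAK4-KD cells and 5.41 ± 0.38 in WT cells, and Nfkbie, the gene of IkB-epsilon, by 1.99 ± 0.21 and 3.61 ± 0.21 in the same genotypes. Of these 12 genes, 3 had a called response difference at 1 h and 4 at 4 h, all lower in IRAK4-KD cells (over all genes 0.458% and 2.55% were called), among them Nfkbiz at 4 h with -0.68 ± 0.13. The feedback genes thus differed in how far the IRAK4-KD response at 4 h fell short, with -2.29 for Tnfaip3 and -0.68 for Nfkbiz, a contrast between genes that was not tested. By these estimates Tnfaip3 did not fall short the most, given the Zc3h12a rises of 2.40 ± 0.38 in IRAK4-KD cells and 5.41 ± 0.38 in WT cells at 4 h. That ordering was not tested either. At 1 h Nfkbiz also fell far short, with rises of 0.96 and 3.91 in the same genotypes.

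Of 10 tested linear ubiquitin and A20-associated enzymes, 0 were called in IRAK4-KD cells at either time by limma. In WT cells 2 fell at 1 h (1 with median centring) and 1 rose at 4 h. The shares over all genes were 2.81% in IRAK4-KD and 7.15% in WT cells at 1 h, and 0.530% and 10.1% at 4 h. The IRAK4-KD counts and the WT count at 4 h are thus near these shares. Spata2, which encodes a partner that links CYLD to the linear ubiquitin ligase, fell at 1 h (-0.54 ± 0.11, adjusted p = 0.0062) and was higher at 4 h (0.40 ± 0.11, adjusted p = 0.0346) in WT cells. Otud7b, the gene of Cezanne, a deubiquitinase of the OTU family to which A20 belongs, fell at 1 h in WT cells (-0.98 ± 0.16, adjusted p = 0.000743). The response difference at 1 h was 0.79 ± 0.22 for Otud7b (adjusted p = 0.237) and 0.43 ± 0.16 for Spata2 (adjusted p = 0.452). Neither was called, and 0 of these 10 genes had a called response difference at 1 h or at 4 h. Of 11 tested OTU-family genes, Otud7b included, 1 rose in IRAK4-KD cells and 4 fell in WT cells at 1 h (over all genes 2.81% and 7.15% were called). The list's WT median at 1 h was -0.32 against -0.06 over all genes, and 2 of the 4 falls were called with median centring. Otud1 was the gene that rose in IRAK4-KD cells at 1 h (1.04 ± 0.13, adjusted p = 0.000415). Of the 11 OTU-family genes, 0 had a called response difference at 1 h and 1 at 4 h (over all genes 0.458% and 2.55%). A difference between genotypes at 1 h was thus not shown for Otud1 or for the genes that fell.

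Of 15 tested substrates and kinases upstream of NF-kB, 0 were called in IRAK4-KD cells and 1 in WT cells at 1 h, and 1 in IRAK4-KD cells and 2 in WT cells at 4 h. Over all genes 2.81% and 7.15% were called at 1 h and 0.530% and 10.1% at 4 h, in the same order of genotypes. These WT counts are thus near the shares over all genes, and 0 of the 15 had a called response difference at either time. The WT counts depended on the scaling, with 3 higher at 1 h and 3 at 4 h under median centring and 4 at 4 h under quantile normalization. Birc3, the gene of the ubiquitin ligase cIAP2, rose at 4 h by 1.06 ± 0.19 in IRAK4-KD cells and 1.50 ± 0.19 in WT cells, and at 1 h by 1.04 ± 0.19 in WT cells. Malt1, the gene of a protease that cleaves A20, rose at 4 h in WT cells (1.21 ± 0.23, adjusted p = 0.00241). Among 10 tested Nedd4-family ligases and Itch adaptors, Smurf2 rose in IRAK4-KD cells at 1 h (0.59 ± 0.11), and in WT cells 0 were called at either time by limma, although 2 were called higher at 1 h with median centring. The Smurf2 fold change in WT cells at 1 h was 0.35 ± 0.11 (adjusted p = 0.0697). Of 7 tested autophagy receptors and their partners, Sqstm1, the gene of p62, rose by 0.67 ± 0.13 and Gabarapl1 by 0.39 ± 0.10 at 4 h in WT cells, while Nbr1 fell (-0.42 ± 0.11, not called with median centring). Sqstm1 had a called response difference at 4 h of -0.80 ± 0.18 (adjusted p = 0.0266). Those of Gabarapl1 (-0.31 ± 0.14, adjusted p = 0.333) and Nbr1 (0.47 ± 0.15, adjusted p = 0.154) were not called. Without stimulation Gabarapl1 was higher in IRAK4-KD than in WT cells (0.49 ± 0.10, adjusted p = 0.00373).

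The genes whose 6 group means, each centred on its own average, lay nearest to those of a member were found by root mean square difference on the log2 scale over 12455 other genes. For Tnfaip3 these were Gem (0.63), Nfkbiz (0.68), Slc25a25 (0.82), Rgs16 (0.83) and the transcript annotated C130033p17rik (0.94). Gem and Nfkbiz encode a small GTP-binding protein and the IkB-family inhibitor named above, and both share with Tnfaip3 a highest mean in WT cells at 1 h. For Tnip1 they were Gopc (0.066), Egln3 (0.11) and a probe set annotated Mir1949 (0.12), each with its highest mean in WT cells at 4 h.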

How the data were processed

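RNA samples were hybridised to 12 Affymetrix MOE430 2.0 arrays after NuGEN Ovation amplification, per the labels' protocols. The deposited values are MAS5 signal intensities on a linear scale, per the submitters' processing notes (no version given), with the same trimmed mean on every array; how the authors set it is not given in the sources used here. No further normalization was applied. Signals were tested as log2(signal + 8), so fold changes of low signals are understated. Probe sets reaching 25.5 on at least 2 arrays were kept, and 6 group means were fitted with limma 3.58.1 (R 4.3.3, eBayes with a variance trend, 6 residual degrees of freedom) and Benjamini-Hochberg adjustment over 27086 probe sets, separately for each of 9 comparisons and 1 added after the values were seen. For gene counts, each gene was taken at its brightest probe set, over 12456 genes. Probe sets were named by the platform annotation, and of 34958 with a single gene symbol 34754 had an ID found in the GRCm38.p6 gene table. The fit was tested on simulated data. Precision is limited by the 2 arrays in each group. The members and gene lists were chosen with earlier results of these data known. Named genes are the 6 members, the 5 genes nearest to Tnfaip3 and the 3 nearest to any other member with a called change of at least 1 log2 unit (Tnip1), and up to 4 called genes of each list with the largest change. The alternatives changed the pseudocount, filter, scaling, variance model, probe set choice, replicate block and arrays. Python 3.11.15 with matplotlib 3.10.9 made the plots.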

Additional observations from a re-analysis of the deposited data

Results flagged for a closer look

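The Tnfaip3 response, measured by probe set 1433699_at, differed between genotypes by a direct test of the difference at each time. The IRAK4-KD response minus the WT response was -4.35 at 1 h and -2.29 at 4 h on the log2 scale, and the change from 1 h to 4 h differed by 2.06. The last comparison was added after the values were seen and follows from the others, so it is not separate evidence. Over the alternative settings these values ranged from -4.51 to -3.99, from -2.44 to -2.05 and from 1.94 to 2.16, and each was called in all of them.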

How the results depend on the processing

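Results were recomputed under up to 23 alternatives, 11 changed settings and 12 fits without an array, in which a lone array is assumed to vary like the other groups. A probe set that a setting leaves out has 21 or 22. Of 2640 values 2600 kept their call and direction, 21 lost a call, 19 gained one and 0 called values changed sign (89 uncalled ones did). The number of member probe sets called was 2 for WT at 4 h and 1 for IRAK4-KD at 4 h and for the response differences in all of these. For WT at 1 h it was 1 with a pseudocount of 1, without the variance trend or with array weights, when the dim Tnfaip3 probe set was lost, 3 with quantile normalization (Cyld, lower), and 1 to 2 without an array. For IRAK4-KD at 1 h it was 0 without the trend or with only the groups compared, where the Tnfaip3 fold change stayed 0.74 (adjusted p = 0.0751 and 0.0779). Without an array the count was 0 to 1 and the fold change 0.62 to 0.86. For IRAK4-KD between 1 h and 4 h it was 1 (Cyld) with array weights or only the groups compared, and 0 to 1 without an array; in WT cells it was 2 to 3 without an array and 3 with a filter at 100 or median centring (Itch) or with a pseudocount of 32 or only the groups compared (the dim Tnfaip3 probe set). For the unstimulated genotypes it was 0 with no filter, array weights or only the groups compared, 2 with a filter at 100, quantile normalization or median centring, and 0 to 1 without an array. The 2 calls were Cyld and Tax1bp1 with the filter or quantile normalization, and Tax1bp1 and Itch, without Cyld, with median centring. Without the variance trend the count stayed 1, with Itch in place of Cyld. The causes were not tested. Brightest probe sets alone gave no count of probe sets. With the replicate block no call or count changed (Tnfaip3 at 1 h in IRAK4-KD cells adjusted p = 0.0132, Cyld in unstimulated cells 0.0477), and same-numbered arrays did not deviate together (correlation -0.03 to 0.07 over 15 pairs of groups). Median centring moved the WT 1 h median over all probe sets to 0.10, against -0.06, and the share of calls that were higher to 75.8%, against 43.6%. Signals near background limit the dim Tnfaip3 probe set and Tnip2.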
